A study of Mus musculus with 4 samples.

Results

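The amyloid precursor family and its secretases were examined in adult mouse testis. The set holds the 3 precursor genes App, Aplp1 and Aplp2, the aspartyl proteases Bace1 and Bace2, and Psen2, a catalytic subunit of gamma-secretase. Its 6 genes were taken by symbol from the 25265 genes of the deposited count table, and all 6 passed the filter on low counts, as did 21132 genes in all. The set was selected on the difference of Aplp1 between the genotypes, which was known from earlier results of these data. The fold changes of the 6 genes, and whether each passed the threshold of the fit across all genes, are therefore given as a description. No p-value is given for them, and they support nothing beyond themselves.

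Testes of C57BL/6 males at postnatal day 56 were sequenced after depletion of ribosomal RNA, with 2 control libraries and 2 libraries carrying the label Ythdf2-vKO (here vKO). The series title places the mutation of Ythdf2, which encodes a reader of N6-methyladenosine in RNA, in germ cells. The labels give neither the allele, nor the Cre driver, nor the genotype of the controls, and they do not say whether each library came from its own animal, so the spread between libraries may be technical. Total counts were 24862518 and 29561182 (control) and 26298245 and 26265700 (vKO). Ythdf2 itself had 1193 and 1604 counts (control) and 1774 and 1807 counts (vKO). Its log2 fold change was 0.35 (SE 0.13), so the counts of Ythdf2 were not lower under the vKO label. Counts over a whole gene in whole testis cannot show whether part of the transcript was lost in germ cells. The groups are named by their labels only. Markers of Sertoli, Leydig and germ cells were present in every library. In whole tissue, fewer cells of a type and less RNA per cell cannot be told apart.

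The precursor proteins cross the membrane a single time and are cut in sequence. An alpha-secretase of the ADAM family or the beta-secretase BACE1 first sheds the large outer part, and gamma-secretase then cuts the remaining stub inside the membrane and frees the intracellular tail. Only App contains the amyloid-beta segment, while all 3 precursors carry an NPTY motif in the tail that docks adaptor proteins. Aplp1 is known mainly from neurons, whereas App and Aplp2 are broadly expressed.

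The coding bases of that shared tail are shown because they mark the 3 genes as paralogs and show how far their reads can be told apart. Each run is 10 codons on the coding strand around the motif and lies in 1 exon on the minus strand of GRCm38. Capitals mark the 19 of 30 bases that all 3 genes share.
App, chr16:84955349-84955378: GGaTATGAgAAtCCaACtTACaagTtCtTt
Aplp1, chr7:30435308-30435337: GGcTATGAgAAcCCcACcTACcgcTtCcTg
Aplp2, chr9:31150889-31150918: GGtTATGAaAAcCCaACcTACaaaTaCcTg
In this window App differed from Aplp1 at 9 bases and Aplp2 differed from Aplp1 at 7.

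Over their whole length the transcripts shared only short exact runs. Between the longest protein-coding transcripts of Aplp1 (2343 nt) and Aplp2 (3634 nt), the longest exact run in common was 14 nt (gaggatgaagagga). Between Aplp1 and App (8167 nt) it was also 14 nt (attgctgcttctgc), and between App and Aplp2 it was 24 nt (ctatggcatgctgctgccctgcgg). Between Bace1 and Bace2 it was 15 nt. A search of the Aplp1 transcript against all annotated mouse transcripts matched 0 other genes (megablast), and the same was found for Aplp2, Bace2 and Psen2. Bace1 matched 3 genes, all of which overlap it on the other strand. App matched 320 genes, of which 1, the overlapping antisense gene Gm49227, did so at 95% identity or more over at least 100 nt.

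Aplp1 was the member that differed most between the groups. Aplp1 (ENSMUSG00000006651) spans 30434982 to 30445535 of chromosome 7 (minus strand), and no annotated gene overlaps it. It had 296 and 321 counts (control) and 869 and 829 counts (vKO). Scaled by TMM, these are 12.7 and 10.7 CPM (control) and 32.5 and 30.7 CPM (vKO), where CPM are reads scaled to a common library size. Both vKO libraries lay well above both control libraries, and the difference between libraries of a group was under 2 CPM. The means were 11.7 ± 1.38 and 31.6 ± 1.23 CPM (SD, n = 2 each), a log2 fold change of 1.44 (SE 0.16) or a 2.71-fold higher level in vKO. The authors' deposited table lists a log2 fold change of 1.44 (SE 0.19).

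By edgeR's quasi-likelihood test across all genes, called at a Benjamini-Hochberg adjusted p under 0.05, Aplp1 was the 1 member called, and it was higher. Of all genes tested, 0.279% were called higher and 0.114% lower. Of these calls 71.1% were higher, against 83.0% with library totals alone as the scaling and 46.7% with an offset for GC content. Because Aplp1 led to the choice of the set, nothing is read from this count. Among the 59 genes called higher, Aplp1 ranked 21st both by its mean CPM and by its log2 fold change. Leaving out any single library left its log2 fold change between 1.32 and 1.55.

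Libraries also differed in how their counts followed GC content. Across 17817 genes, deviations of a library from the 4-library mean were rank-correlated with transcript GC content (Spearman). The values were 0.02 and -0.40 in control replicates 1 and 2, and 0.25 and 0.19 in vKO replicates 1 and 2. Both vKO libraries thus lay above both controls, and the trend ran along with the group labels. Control replicate 1 nevertheless lay nearer to both vKO libraries than to control replicate 2. These correlations are across genes, which are not independent replicates. The longest Aplp1 transcript has a GC content of 59.4%, the highest of the 6 members, which began at 45.9% in Bace2. With an offset that removes the trend with GC content in each library, the log2 fold change of Aplp1 was 1.17 (SE 0.15).

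**Figure D1:**
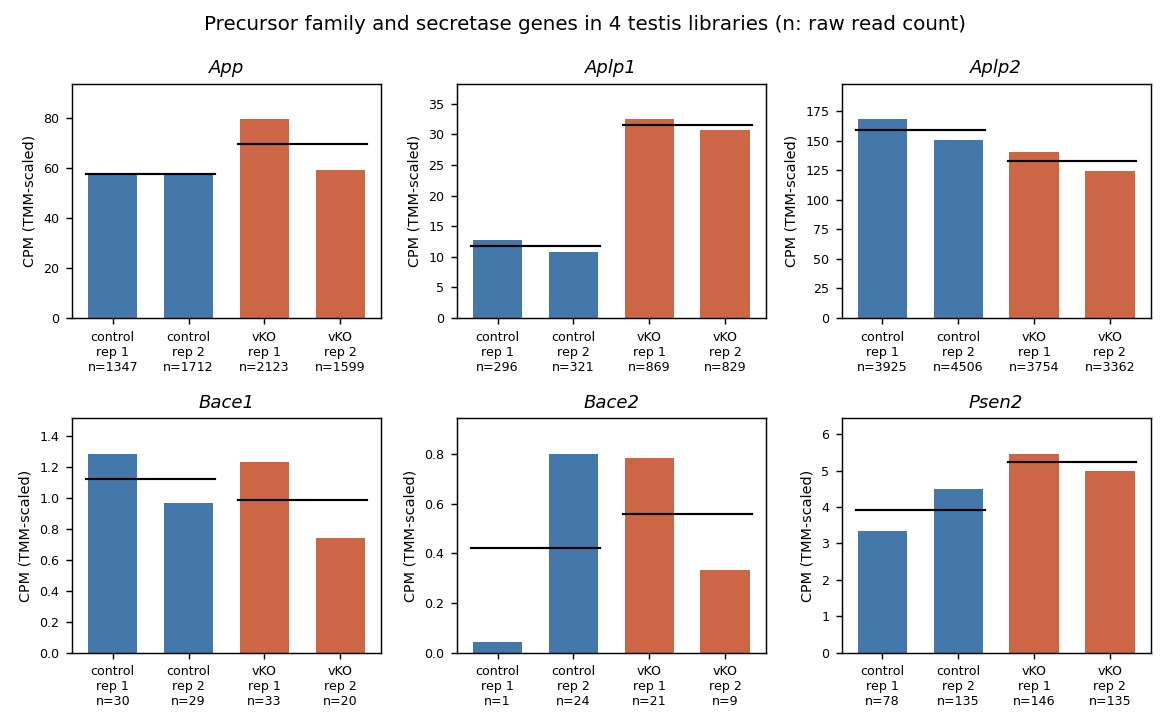
TMM-scaled CPM of the 6 genes in each library (y axes start at 0 and differ between panels), with raw read counts under the bars; black lines are group means of 2 libraries. For Aplp1 the vKO libraries sit at 32.5 and 30.7 CPM against 12.7 and 10.7 in control, while Bace1 and Bace2 lie below 1.3 CPM in every library.

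The other precursors did not pass the threshold. App (ENSMUSG00000022892, minus strand of chromosome 16, 84949685 to 85173766), the precursor of amyloid-beta, had 57.6 and 57.1 CPM (control) and 79.3 and 59.3 CPM (vKO). The groups did not overlap, but replicate 2 of vKO lay within 3 CPM of the controls. The log2 fold change of App was 0.27 (SE 0.15), and without vKO replicate 1 it was 0.05. The antisense genes Gm10791 and Gm49227 overlap App, with 39 to 73 and 11 to 40 counts, and the use of strand in counting is not stated.

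Aplp2 (ENSMUSG00000031996, minus strand of chromosome 9, 31149557 to 31211815), the third precursor, went the other way. It had 168 and 150.3 CPM (control) and 140.2 and 125 CPM (vKO). Both vKO libraries lay below both controls, though the gap between the groups was smaller than that between the 2 controls. The log2 fold change of Aplp2 was -0.26 (SE 0.13), and it was negative under all 13 alternatives.

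Set against each other within a library, the precursors need no scaling for depth between libraries. The trend with GC content stays in such ratios, and the transcripts differ in it (Aplp1 59.4%, Aplp2 48.4%, App 46.1%). With the GC offset the log2 fold changes were 1.17 for Aplp1, -0.31 for Aplp2 and 0.26 for App. There were 13.3 and 14.0 counts of Aplp2 for each count of Aplp1 in control, and 4.32 and 4.05 in the vKO libraries. For App the same ratios were 4.55 and 5.33 (control) and 2.44 and 1.93 (vKO). Both ratios were lower in both vKO libraries, with no overlap.

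Levels of different genes were compared per kilobase of annotated exon (RPKM). Over the 4 libraries the order was Aplp2 (mean 24.8, range 21.2 to 28.6 RPKM), Aplp1 (7.17, 3.55 to 10.8), App (4.87, 4.39 to 6.10), Psen2 (1.06, 0.77 to 1.26), Bace1 (0.166, 0.117 to 0.202) and Bace2 (0.0622, 0.00542 to 0.102). Only the ranges of Aplp1 and App overlapped among neighbours in this order. Their order differed by group, with Aplp1 at 4.20 and 3.55 RPKM below App at 4.43 and 4.39 in control, and Aplp1 at 10.8 and 10.2 above App at 6.10 and 4.56 in the vKO libraries.

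As a share of the summed RPKM of the 3 precursors, Aplp1 made up 11.3% and 10.6% in control and 26.4% and 28.3% in the vKO libraries. Aplp2 made up 76.8% and 76.3% in control and 58.6% and 59.0% in the vKO libraries. The App share was 11.9% to 15.0% over the 4 libraries, and the groups overlapped. The summed RPKM was 37.2 and 33.5 in control and 40.7 and 36.0 in the vKO libraries, so that the groups overlapped in the total too. Per length of the longest transcript, the Aplp1 share was 8.77% and 8.22% in control and 21.4% and 23.0% in the vKO libraries. None of these shares was adjusted for GC content.

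**Figure D2:**
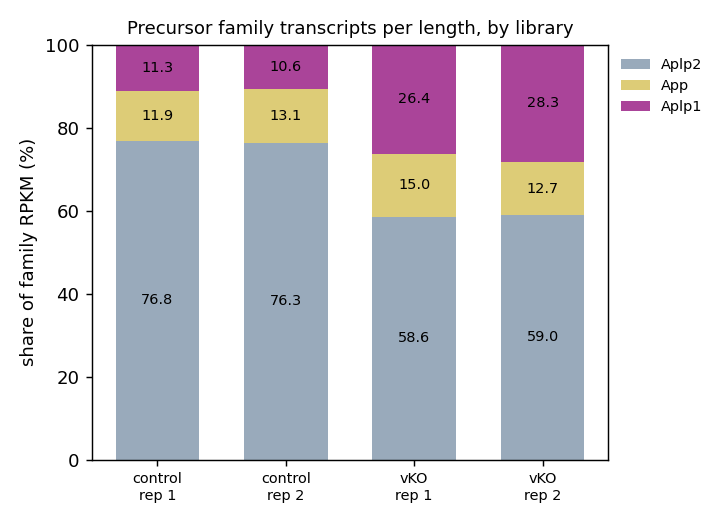
Share of each precursor gene (y axis, percent of the summed RPKM of App, Aplp1 and Aplp2) in each of the 4 libraries. Aplp1 takes 26.4% and 28.3% in the vKO libraries against 11.3% and 10.6% in control, and Aplp2 takes correspondingly less. Shares are not adjusted for GC content.

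The secretase members were low. Bace1 (ENSMUSG00000032086, plus strand of chromosome 9, 45838580 to 45864399), the beta-secretase, had 30 and 29 counts (control) and 33 and 20 counts (vKO). Its groups overlapped, and its log2 fold change was -0.18 (SE 0.45). On the other strand Rnf214, Gm16536 and Gm49338 overlap Bace1 and had 811 to 1141, 124 to 195 and 97 to 192 counts, more than Bace1 itself. How reads in the overlap were divided is not stated, so the Bace1 value is uncertain.

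Bace2 (ENSMUSG00000040605, plus strand of chromosome 16, 97356742 to 97442936), its paralog, had 1 and 24 counts (control) and 21 and 9 counts (vKO). The 2 control libraries lay at either end of the range, and the log2 fold change of 0.33 had an SE of 0.88. At these depths the SE was 0.45 for Bace1 and 0.88 for Bace2, against 0.16 for Aplp1.

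Psen2 (ENSMUSG00000010609, minus strand of chromosome 1, 180227004 to 180263438) had 78 and 135 counts (control) and 146 and 135 counts (vKO), or 3.34 and 4.50 against 5.45 and 5.0 CPM. Control replicate 1 was the low library, and the groups did not overlap. The log2 fold change of Psen2 was 0.41 (SE 0.24), and it was not called. Without control replicate 1 it was 0.21.

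In all, 3 of the 6 members had vKO libraries above both controls (App, Aplp1 and Psen2), 1 had them below (Aplp2) and 2 overlapped. Of all genes tested, 22.7% lay above in this way and 22.6% below.

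The other genes of the pathway were described from 6 lists of 41 genes, of which 38 were in the table and 35 were tested. In the edgeR fit, 0 of the 35 were called in either direction. At an unadjusted p under 0.05 there were 4 higher and 3 lower, where 7.65% of all genes tested were higher and 6.47% lower. A DESeq2 Wald test called 1, Dab1, as lower, where it called 0.833% of all genes with an adjusted p higher and 0.486% lower. The median log2 fold change of the pathway genes was 0.17, with 21 of 35 positive, against a median of 0.00265 and 50.3% positive over all genes tested. The median was -0.06 with the offset for GC content, which also moved that of all genes to -0.07. The groups did not overlap in 14 genes that were higher and 8 that were lower in vKO, beside the 22.7% and 22.6% of all genes given above.

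Of 5 gamma-secretase partners, 3 had positive and 2 had negative log2 fold changes. Ncstn encodes nicastrin, the subunit that receives the substrate, and had 50.2 and 37.4 CPM (control) and 56.9 and 48.1 CPM (vKO). The groups overlapped, and the log2 fold change of Ncstn was 0.26 (SE 0.16, edgeR adjusted p 0.507). It was 0.48 without control replicate 1 and 0.07 without control replicate 2. Aph1a, a scaffold subunit, had the smallest p of the list, with 8.04 and 8.97 CPM (control) and 13.8 and 12.6 CPM (vKO). The log2 fold change of Aph1a was 0.63 (SE 0.18, edgeR adjusted p 0.148). It was 0.55 without control replicate 1 and 0.72 without control replicate 2.

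The alpha-secretases gave log2 fold changes of 0.31 for Adam9, 0.32 for Adam10 and -0.19 for Adam17. Adam10, the main constitutive alpha-secretase of App, had 20.9 and 25.2 CPM (control) and 31.2 and 26.6 CPM (vKO) (SE 0.16, edgeR adjusted p 0.376). In the edgeR fit 0 of the 3 were called, also at an unadjusted p under 0.05 and by DESeq2.

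Of the adaptors that bind the tail, Dab1, a docking protein of reelin signalling, differed most. It had 74 and 105 counts (control) and 33 and 26 counts (vKO), or 3.17 and 3.50 against 1.23 and 0.964 CPM. The groups did not overlap, and the log2 fold change of Dab1 was -1.60 (SE 0.32). Its edgeR adjusted p of 0.0558 missed the threshold, and it passed under 9 of 13 alternatives. Among these were the replicate block and the fits without a control library, which also called far more genes in all. The authors' deposited table gives Dab1 an adjusted p of 0.0293. Apba1, a Mint family adaptor and the most abundant of the list, was at 85.7 ± 27.6 CPM in control and 74.9 ± 13.5 CPM in vKO (SD, n = 2). The log2 fold change of Apba1 was -0.19 (SE 0.21, edgeR adjusted p 0.752). It was 0.17 without control replicate 1 and -0.49 without control replicate 2.

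Of 11 sorting and processing regulators, 8 had positive and 3 had negative log2 fold changes, beside 50.3% positive over all genes tested. The median of the list was 0.17, and it was 0.0093 with the GC offset, which moved that of all genes to -0.07. Sort1, the sorting receptor sortilin, was at 194 ± 22.7 CPM in control and 196 ± 9.66 CPM in vKO (SD, n = 2). Rtn3, a reticulon that binds BACE1, had 197 and 203 CPM (control) and 173 and 161 CPM (vKO), a log2 fold change of -0.27 (SE 0.12, edgeR adjusted p 0.331).

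Among enzymes that degrade amyloid-beta, Ide, a zinc metalloprotease, had 282 and 249 CPM (control) and 228 and 216 CPM (vKO). Its log2 fold change was -0.26 (SE 0.12, edgeR adjusted p 0.362). Ece1, the endothelin-converting enzyme, had a log2 fold change of 0.41 (SE 0.18, edgeR adjusted p 0.324).

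The other BACE1 substrates included the adhesion molecule Chl1, with 780.4 and 748 CPM (control) and 562 and 643 CPM (vKO). Its log2 fold change was -0.34 (SE 0.12, edgeR adjusted p 0.229). The log2 fold change of Chl1 was -0.32 without control replicate 1 and -0.37 without control replicate 2. St6gal1, a sialyltransferase, went from 7.83 and 7.14 CPM to 13.0 and 9.86 CPM, a log2 fold change of 0.61 (SE 0.20, edgeR adjusted p 0.197). In both genes the groups did not overlap.

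**Figure D3:**
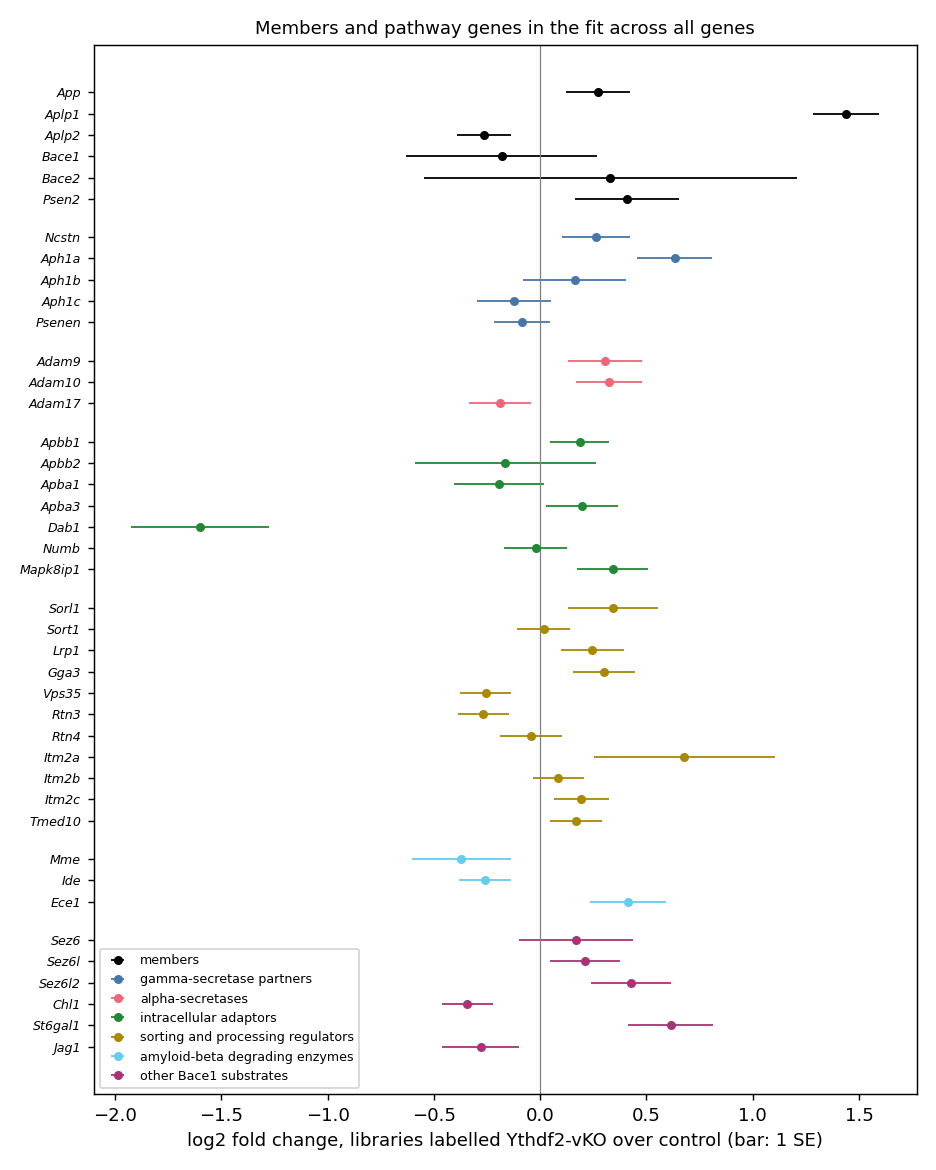
Log2 fold changes (x axis, vKO over control, bars 1 SE) of the 6 members and of the 35 tested pathway genes, coloured by list. Aplp1 at 1.44 and Dab1 at -1.60 lie apart from the rest.

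Summed levels of Sertoli, spermatogonial, endothelial, nerve and glial, round spermatid and elongating spermatid markers did not overlap between the groups. Those of Leydig cells, myoid cells, macrophages and spermatocytes did. Among single genes tested, 22.7% lay higher in this way and 22.6% lower. Round spermatid sums were 1259 and 1246 CPM (control) and 1273 and 1341 CPM (vKO). Vwf, the largest part of the endothelial sum, overlapped (26.1 and 14.2 against 30.8 and 23.5 CPM). The part of these cell types in the Aplp1 difference was not tested. Of 11 Sertoli cell markers, 11 had positive log2 fold changes and 1, Wt1, was called (0.71, SE 0.13, edgeR adjusted p 0.0418). At an unadjusted p under 0.05, 7 of the 11 were higher (7.65% of all genes), and DESeq2 called 3, Amhr2, Cldn11 and Wt1. Wt1 lost its call with the GC offset (log2 fold change 0.56), without robust estimation (0.71) and without vKO replicate 1 (0.66) or replicate 2 (0.76), at edgeR adjusted p of 0.0501 to 0.338. The summed level of the 11 Sertoli markers was 1138 and 1191 CPM (control) and 1615 and 1434 CPM (vKO). The means of these sums differed 1.31-fold. Clu alone made up much of the sum, at 658 and 715 CPM (control) and 934 and 801 CPM (vKO). Spermatogonial markers were positive in 7 of 7 genes (summed 95.8 and 99.7 against 127 and 113 CPM). Leydig markers were positive in 6 of 7 (292 and 354.5 against 458 and 345 CPM) and endothelial markers in 4 of 5 (33.3 and 22.6 against 41.8 and 35.6 CPM). In these 3 lists 0 genes were called by edgeR or DESeq2, and 3, 3 and 1 genes were higher at an unadjusted p under 0.05 (7.65% of all genes).

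Elongating spermatid markers were positive in 1 of 7 genes, at 9716 and 7866 CPM (control) and 7478 and 7562 CPM (vKO). Of these, 0 were called by edgeR or DESeq2 and 4 were lower at an unadjusted p under 0.05 (6.47% of all genes). Since Aplp1 is best known from neurons, markers of nerve and glia were also read. They were positive in 3 of 5 tested genes, with sums of 50.01 and 53.4 CPM (control) and 67.9 and 60.2 CPM (vKO). In this list edgeR called 0 genes, 1 was higher and 1 lower at an unadjusted p under 0.05, and DESeq2 called Tubb3. In the same list, the glial gene Sox10 had 49 to 75 counts, and the synaptic gene Snap25 had 0 and 1 counts (control) and 9 and 6 counts (vKO).

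Genes with a pattern like that of Aplp1 were sought over the 4 libraries. Likeness was the root mean square difference of the log2 CPM deviations from each gene's own mean, among 17822 genes with a mean of at least 1 CPM. The closest were Malrd1 (0.0771), Plch2 (0.101), Tle2 (0.116), Ddr1 (0.12) and Zfp341 (0.129). Of these, Tle2, a Groucho family corepressor, had 147 and 131 counts (control) and 412 and 413 counts (vKO). Ddr1, a collagen receptor kinase, had 469 and 460 counts (control) and 1386 and 1078 counts (vKO). Malrd1 had only 24 to 74 counts, Plch2 46 to 125 and Zfp341 21 to 60. With 4 libraries in 2 groups, the measure mostly picks genes with a like difference between the groups. The measure was not adjusted for GC content. GC content of the longest transcript was 59.4% in Aplp1, 59.6% in Plch2, 59.2% in Tle2, 59.7% in Ddr1 and 58.6% in Zfp341. In Malrd1 it was 44.9%. With the GC offset, log2 fold changes went from 1.34 to 1.07 (Plch2), 1.53 to 1.28 (Tle2) and 1.38 to 1.11 (Ddr1). Zfp341 went from 1.25 to 0.996 and Malrd1 from 1.45 to 1.44. The part of GC content in the likeness was not tested.

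**Figure D4:**
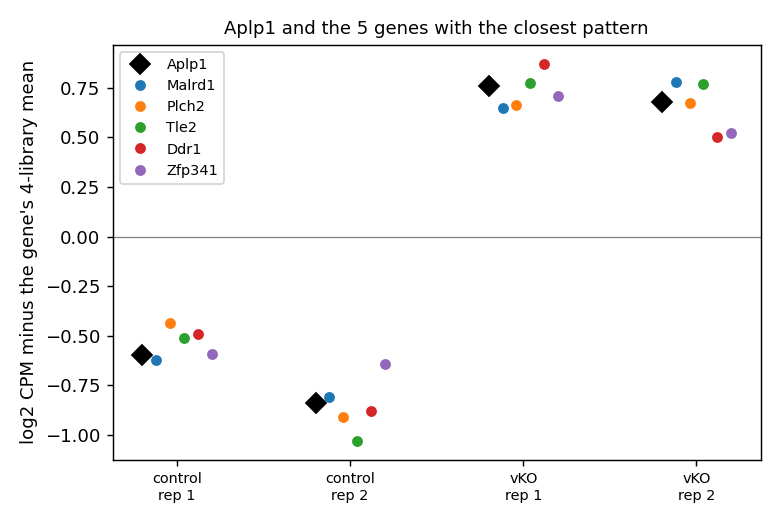
Deviation of log2 CPM from each gene's mean over the 4 libraries (y axis) for Aplp1 and the 5 genes closest to it. Aplp1 lies at -0.60 and -0.84 in control and 0.76 and 0.68 in the vKO libraries. Deviations are not adjusted for GC content.

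Around Aplp1 on chromosome 7, the other genes of the table within 50 kb were Tyrobp, Nfkbid and Rps12-ps4, a window chosen after the values were seen. Tyrobp, with 20 and 79 counts (control) and 39 and 57 counts (vKO), had a log2 fold change of 0.01 (SE 0.48), and Rps12-ps4 one of 0.03 (SE 0.62). Nfkbid, with 3 to 13 counts, was not tested.

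The 250 bases before the RefSeq start of Aplp1 are shown because it was the member called. They lie at chr7:30445583-30445832 in GRCm38.p6 and are written on the minus strand, 5′ to 3′, with the GC box GGGCGG in capitals.
Aplp1: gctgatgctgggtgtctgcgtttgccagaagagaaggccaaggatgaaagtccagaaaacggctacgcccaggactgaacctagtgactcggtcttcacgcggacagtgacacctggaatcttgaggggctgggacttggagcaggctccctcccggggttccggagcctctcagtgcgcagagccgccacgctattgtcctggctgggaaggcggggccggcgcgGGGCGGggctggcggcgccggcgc
The window holds 1 GC box, counted on both strands, and no TATAAA. Of 32851 such windows, 32.7% hold a GC box and 12.4% a TATAAA. Aplp2 has 3 GC boxes, App has 1 in the same window, and the 2 Psen2 windows have 2 and 0, each without TATAAA. GC content is 66% for Aplp1, 62.8% and 44.8% for Psen2, 66.4% for Aplp2 and 70.8% for App, against a median of 52.4% over all windows. A match of letters is a description of the sequence only.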

How the data were processed

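The authors deposited 1 table of raw read counts per gene for the 4 libraries, with a mean normalized signal, log2 fold changes and standard errors, a test score, and raw and adjusted p-values, per the file headers. HISAT2 2.1.0 and HTSeq 0.6.1p1 are named in the submitters' processing notes. The genome build, annotation, strand setting and filters are not given in the sources used here. The lowest summed count of a gene was 10, and genes with less are not analysed here. Recomputing the deposited mean signal from the counts checked the column assignment (largest relative difference 4.9e-10). Replicates differed by more than sampling noise (chi-square per degree of freedom 21.2 in control, 8.41 in vKO), so none were merged.

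All genes were fitted with edgeR 4.0.16 in R 4.3.3: TMM scaling, the filterByExpr filter, robust quasi-likelihood estimation with genotype as the only term, Benjamini-Hochberg adjustment over 21132 genes, and a call at an adjusted p under 0.05. The SE is the absolute log2 fold change divided by the square root of F. The fit was tested on simulated data. RPKM divide CPM by the union of exons in GENCODE M21 (GRCm38), where 25241 of 25265 identifiers were found. That build may differ from the authors'. Transcripts were searched with blastn 2.17.0 (megablast). Promoter sequences are from RefSeq, which matched 4 of the 6 genes.

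The members and all lists were chosen with earlier results of these data known. A gene of a pathway list and a marker of nerve and glia are not reported here and were left out of their lists. The naming rule took the 6 members, called pathway genes, the most abundant gene and the gene of smallest p in each list, and the 5 genes closest to Aplp1. Of the 10 cell type lists, those of spermatocytes, round spermatids, myoid cells and macrophages had median log2 fold changes of -0.13, 0.06, -0.05 and 0.04. Alternatives covered scaling, filters, DESeq2 1.42.0, a GC offset (lowess, span 0.3), the replicate block and each library left out. With 2 libraries per group, the smallest two-sided exact permutation p is 0.333, so no such test was made.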

Additional observations from a re-analysis of the deposited data

How the results depend on the processing

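The log2 fold change of Aplp1, on which the set was chosen, ran from 1.17 to 1.55 over the 13 alternatives, a description of the same 4 libraries. App (0.05 to 0.47) and Psen2 (0.21 to 0.65) stayed positive and Aplp2 (-0.35 to -0.18) negative, and none of these 3 was called under any of them. Bace1 ran from -0.59 to 0.14 with libraries left out, and it was positive without control replicate 1 (0.02) and without vKO replicate 2 (0.14). Bace2 ran from -0.52 to 3.56 with libraries left out, and it was negative without control replicate 1 (-0.52) and without vKO replicate 1 (-0.39). Bace2 had under 10 counts in 2 libraries and gave no value with at least 10 counts in every library. Of the pathway genes named, the sign changed for Sort1 to -0.07154 with the GC offset and to -0.064 with the GC offset and replicate block. With a library left out, Sort1 ran from -0.09834 to 0.1336 (negative without control replicate 2 or vKO replicate 1) and Apba1 from -0.4893 to 0.1707 (positive without control replicate 1). The median of the pathway lists was -0.05738 with the GC offset, -0.064 with the GC offset and replicate block, and 0.05706 to 0.2026 with a library left out. The order of the members by RPKM held with both alternatives, and the Aplp1 share of the family, in an alternative chosen after seeing the data, was 8.50% and 22.2% per longest transcript against 10.9% and 27.4%.

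Counts of genes called higher and lower were 59 and 24 (71.1% higher). They were 181 and 37 (83.0%) with library totals alone, 137 and 80 with a DESeq2 Wald test, 56 and 64 (46.7%) with the GC offset and 50 and 15 without robust estimation. With a library left out they ran from 30 to 1048 and from 5 to 523. These fits assume that the lone library of a group varies like the other group. Without control replicate 1 they were 1048 and 464, without control replicate 2 554 and 523, and without vKO replicate 1 30 and 5. Across 17827 genes, deviations from the group mean correlated at 0.0913 between libraries of the same replicate number. With only 2 pairs, this does not establish pairing. With the replicate block the counts were 627 and 390, with the GC offset and replicate block 329 and 614. Under the block the log2 fold change of Aplp1 was 1.44, and Aph1a passed the threshold (0.63, edgeR adjusted p 0.0359), as did Dab1. The cause was not tested. Read depth limits Bace1 and Bace2, at 33 counts or fewer in each library.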
